A study of Mus musculus with 10 samples.

Results

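The genes of the skeletal muscle fibre were looked up in the RNA of whole mouse cochleas, as a group of 31 genes chosen by name from the contractile, calcium-handling and energy machinery of the fibre. All 31 were found among the 27179 genes of the deposited count table. The libraries were 5 labelled Pknox2-/- (KO) and 5 labelled Pknox2+/+ (WT), all from cochleas taken 8 days after birth. No strain, sex, treatment or other allele is stated in the labels for either group, nor how the allele was made or how many pups went into a library. The series text calls the samples of each genotype independent biological ones.

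A skeletal muscle fibre contracts when myosin heavy chains, helped by their light chains, pull on actin filaments that troponin opens in response to calcium. Calcium leaves the sarcoplasmic reticulum through a release channel and returns through a pump. Most parts exist as slow and fast isoforms made from separate genes, and heavy chains also have embryonic and neonatal isoforms that fade after birth. The cochlea itself holds no skeletal muscle, but the tensor tympani and stapedius muscles of the middle ear lie next to the bone that is dissected.

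Fibre genes took a small share of the counts in all 10 libraries, and their levels were uneven. Of the 31 genes, 27 had counts in every library, while Ckm, Myh7, Myh3 and Myl2 had 0 counts in at least 1. Myl1, Casq1, Ryr1, Myh8 and Tnni1 had 3728, 1454, 1402, 738 and 637 counts in all 10 libraries together, against 6 for Ckm and 83 for Acta1. The 31 genes together took 0.0124% to 0.0154% of the counts in KO libraries and 0.0113% to 0.0147% in WT libraries. Their summed level was 137 ± 16.8 CPM in KO and 131 ± 12.1 CPM in WT (SD, n = 5 each), where CPM is a gene's count over the TMM-scaled library total, brought to a common library size. Mybpc1, Myl1, Des, Ryr1 and Casq1 supplied 67.5% to 72.1% of these counts in KO and 67.1% to 73.2% in WT. Whether these counts come from muscle fibres in the dissection or from other cells was not tested, and fibre genes is used below only as a name for the 31 genes. In bulk RNA, fewer cells of a type and less RNA per cell cannot be told apart.

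The stretches of DNA before the starts of 5 genes are printed because they contrast low and high levels. Ckm and Acta1, among the most abundant transcripts of a mature fibre, were low here, and Myl1, Mybpc1 and Des had the highest levels per kilobase of the 31. Each line holds the 250 bases before the RefSeq start on GRCm38.p6, read 5′ to 3′ on the gene's strand. Capitals mark an E-box (CANNTG, the letters that myogenic factors of the MyoD family bind) or a CArG box (the site of serum response factor). Both motifs read the same on both strands, and no 2 marked sites overlap in these lines. Positions are chr7:19410844-19411093 on the plus strand for Ckm, chr8:123894776-123895025 on the minus strand for Acta1 and chr1:66945057-66945306 on the minus strand for Myl1, before a RefSeq start that lies within the span of the annotated gene. They are chr10:88605153-88605402 on the minus strand for Mybpc1 and chr1:75360042-75360291 on the plus strand for Des. The Mybpc1 stretch also stands before a RefSeq start within the span of the annotated gene, which reaches to 88605229, so the stretch overlaps that span in part.
Ckm: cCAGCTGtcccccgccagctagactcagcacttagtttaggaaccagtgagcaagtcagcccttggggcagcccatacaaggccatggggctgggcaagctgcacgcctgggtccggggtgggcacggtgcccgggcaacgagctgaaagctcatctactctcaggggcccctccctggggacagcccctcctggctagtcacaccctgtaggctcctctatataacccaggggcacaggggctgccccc
Acta1: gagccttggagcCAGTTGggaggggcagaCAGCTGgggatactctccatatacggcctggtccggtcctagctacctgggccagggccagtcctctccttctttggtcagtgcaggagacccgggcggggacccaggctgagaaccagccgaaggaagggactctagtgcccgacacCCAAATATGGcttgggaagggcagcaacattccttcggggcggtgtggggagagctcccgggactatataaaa
Myl1: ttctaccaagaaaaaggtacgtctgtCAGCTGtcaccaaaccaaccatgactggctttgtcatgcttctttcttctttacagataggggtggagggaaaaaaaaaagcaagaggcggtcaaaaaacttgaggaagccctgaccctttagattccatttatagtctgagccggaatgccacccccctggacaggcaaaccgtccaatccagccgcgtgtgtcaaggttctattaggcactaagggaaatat
Mybpc1: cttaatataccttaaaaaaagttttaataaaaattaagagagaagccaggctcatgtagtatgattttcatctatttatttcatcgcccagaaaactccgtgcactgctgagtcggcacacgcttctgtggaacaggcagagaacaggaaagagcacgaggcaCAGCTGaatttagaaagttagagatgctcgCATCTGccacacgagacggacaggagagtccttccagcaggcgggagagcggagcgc
Des: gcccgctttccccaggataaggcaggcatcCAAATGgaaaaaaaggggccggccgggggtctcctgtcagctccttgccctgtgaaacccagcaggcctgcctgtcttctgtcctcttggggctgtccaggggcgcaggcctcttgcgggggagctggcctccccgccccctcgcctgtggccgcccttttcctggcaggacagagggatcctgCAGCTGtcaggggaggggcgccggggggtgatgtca

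Every one of these 5 stretches holds an E-box, including those of Ckm and Acta1, and the Acta1 stretch alone among them holds a CArG box. RefSeq starts were given for 24 of the 31 genes, with 29 starts in all. At least 1 E-box stood before 26 of the 29 starts, a share of 89.7%, against 66.2% of 32851 mouse starts with a window of the same length. At least 2 stood before 48.3% of the 29, against 31.8% of all starts. At least 3 stood before 6.90%, against 12.2%, so the direction depends on the number asked for. Starts of the same gene were counted separately. A CArG box stood before 3 of the 29, or 10.3%, against 1.47% of all starts, and a MEF2 box before 4 of the 29, or 13.8%, against 2.92%. These are matches of letters in a short window and say nothing of binding.

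Several facts of the whole series touch the fibre genes. Pknox2 itself was at 22.1, 17.6, 20.5, 28.0 and 17.1 CPM in KO 1 to 5 and at 21.7, 18.8, 17.04, 21.1 and 21.01 CPM in WT 1 to 5. Its log2 fold change was 0.08 (edgeR, SE 0.146 and adjusted p = 0.736), and since the count covers the whole gene it does not check a deletion of part of it. Library totals ran from 16943131 to 17592580 counts in KO and from 16642525 to 19394072 in WT. On the main axis of variation (56.6% of variance in log2 CPM), KO 2, 3 and 5 scored 41.2 to 73.5 and the rest -42.3 to 2.77. Ribosomal protein genes took 4.65% to 5.99% of the counts in those 3 and 2.29% to 3.92% in the others. Y-linked genes summed to 209 CPM in KO 1, to 0 to 11.3 CPM in KO 2 to 5 and to 102 to 225 CPM in WT, so that Y-linked RNA moved with genotype in all but KO 1. The part of these differences in the results below was examined only through fits that leave out KO 2, 3 and 5 or that hold Y-linked expression in the model. The first kind keeps only KO 1 and KO 4 in its KO group. The second compares the groups mainly through KO 1, the only KO library with Y-linked RNA in the WT range. Neither fit can separate these differences from genotype.

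Ckm, which encodes the creatine kinase of muscle and is among the most abundant transcripts of mature fibres, had 0, 0, 0, 1 and 1 counts in KO 1 to 5 and 1, 1, 0, 2 and 0 counts in WT 1 to 5. These are 6 counts in all 10 libraries. A count of 0 allows a level of up to 0.170 to 0.184 CPM in KO libraries and 0.153 to 0.179 CPM in WT libraries, taken as 3 counts and covering counting error only. Acta1, the actin of the skeletal thin filament, had 0.226, 0.918, 0.0609, 0.340 and 0.421 CPM in KO and 0.179, 0.173, 0.254, 0.910 and 1.30 CPM in WT. Its highest values, in KO 2, WT 4 and WT 5, rest on 15, 16 and 23 counts, and the groups overlap. Acta1 is close in sequence to the other actin genes, and it is not stated how reads that match several genes were counted.

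Genes that mark a muscle lineage were also uneven. Pax7, the marker of satellite cells, had 0 counts in all 10 libraries. The myogenic regulators Myf6, Myod1, Myf5 and Myog had 1, 3, 5 and 20 counts in all 10 libraries together, all under 0.5 CPM on average. Of the subunits of the muscle acetylcholine receptor, Chrnb1 had 1256 counts, Chrna1 237 and Chrne 119, while Chrng had 30 and Chrnd 3. Musk, the kinase of the nerve-muscle junction, had 455 counts and averaged 2.06 ± 1.06 CPM in KO and 3.12 ± 0.868 CPM in WT. Of the 20 genes listed for myoblasts, satellite cells and the nerve-muscle junction, 9 averaged under 0.5 CPM. The list sum ran from 470 to 571 CPM in KO and from 419 to 530 CPM in WT, and Mef2c, a factor that many other cells also make, averaged 248 ± 37.1 CPM in KO and 205 ± 23.8 CPM in WT. None of the 11 tested genes of this list was called, and the smallest p values belonged to Mef2c (log2 fold change 0.27) and Cdh15, a cadherin of myoblasts (0.46).

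**Figure D1:**
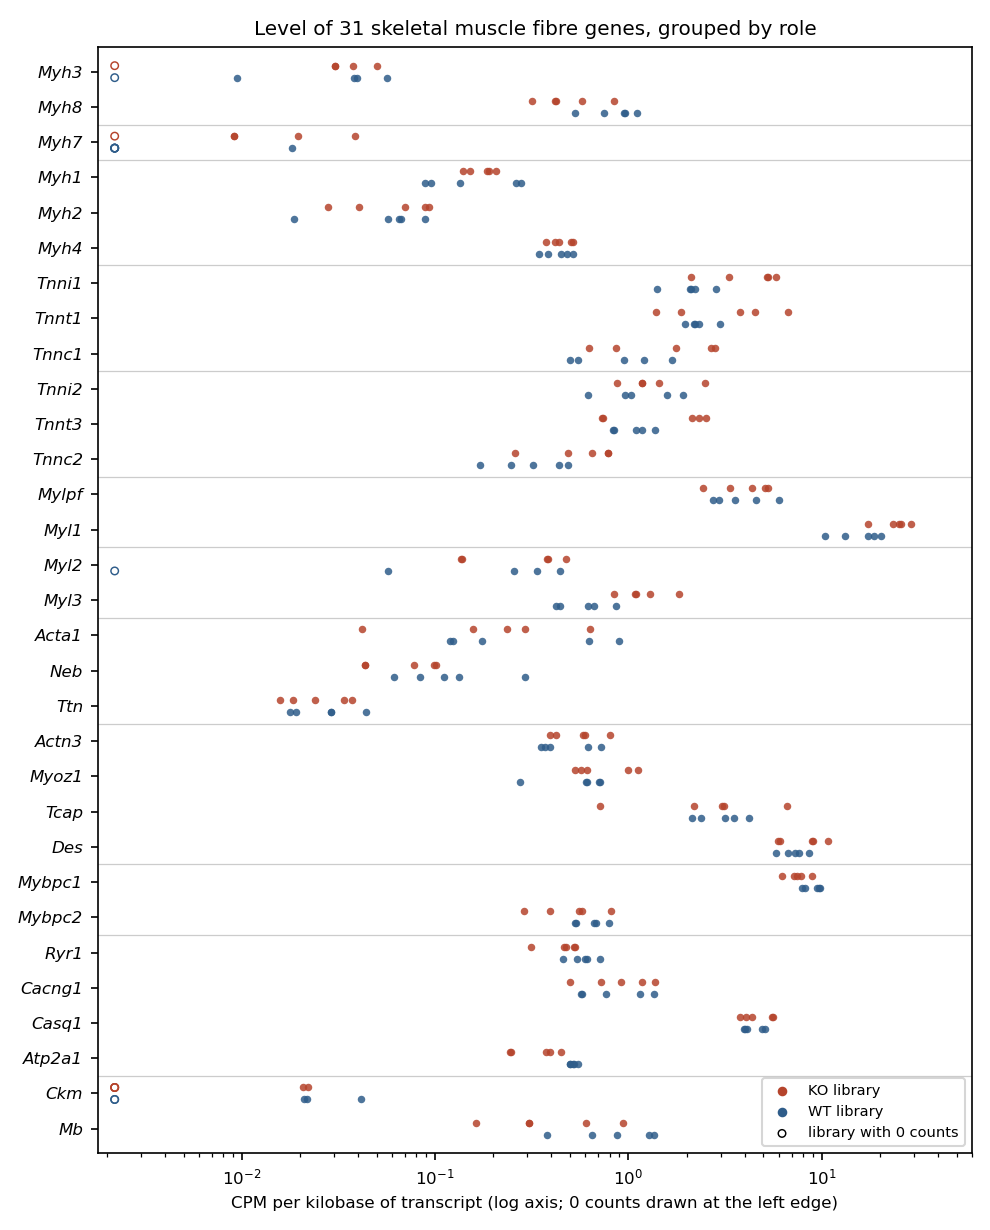
Level of each of the 31 fibre genes in CPM per kilobase of its longest coding transcript (log axis), 1 point per library, with KO above WT in each row and rows grouped by role. Myl1 lies highest at 24.1 CPM per kilobase on average in KO and 16.0 in WT, while Ckm, Myh7, Myh3 and Ttn lie at the low end.

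Per kilobase, levels were highest for Myl1, Mybpc1 and Des and lowest for Myh7, Ckm and Ttn. Myl1, the fast essential light chain, averaged 24.1 CPM per kilobase in KO and 16.0 in WT, higher than 80.9% of the 21572 genes with a known length. Mybpc1, the slow myosin binding protein C, averaged 7.52 in KO and 9.03 in WT, and Des, the intermediate filament protein of all muscle types, averaged 8.19 in KO and 7.19 in WT on the same scale. Ttn, the giant spring of the sarcomere, averaged 0.0258 CPM per kilobase in KO and 0.0278 in WT, and Neb, the ruler of the thin filament, averaged 0.0729 in KO and 0.136 in WT. For scale, the gap junction gene Gjb2 of the cochlear epithelium averaged 237 CPM per kilobase in KO and 265 in WT.

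Of the 31 genes, 24 passed the filter on low counts and 7 did not, namely Myh3, Myh7, Myh2, Tnnc2, Myl2, Acta1 and Ckm. At an adjusted p under 0.05, edgeR's quasi-likelihood test called none of the fibre genes and 3 of 16018 genes in all, or 0.0187%. Of all genes tested, 0.00624% were called higher and 0.0125% lower in KO. At an unadjusted p under 0.05 stood 6 of the 24, a share of 25.0%, against 20.1% of all tested genes. Of these, Tnni1, Myl1 and Myl3 were higher in KO, as were 11.4% of all tested genes, and Myh8, Mybpc1 and Atp2a1 were lower, as were 8.66%. The median log2 fold change of the 24 was 0.07, with 16 above 0 and 8 below, and the median of all tested genes was -0.01. The lowest adjusted p was 0.210, for Tnni1, and these counts cover only the genes that passed the filter.

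Other tools drew the line elsewhere. DESeq2 called 2.11% of all genes with an adjusted p and 1 fibre gene, Tnni1 (adjusted p = 0.0425). Limma-voom with sample quality weights called 39.1% of all genes and 10 of the 24 fibre genes. Without KO 1, edgeR called 1.03% of all genes and again Tnni1 (adjusted p = 0.0450). Without KO 2, 3 and 5, edgeR called 0.00607% of all genes and no fibre gene, and the median of the 24 was -0.20, with 6 genes above 0. Once the length trend of every library was taken out, edgeR called 0.0749% of all genes and again no fibre gene.

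Among the myosin heavy chains, which are the motors of contraction, neonatal Myh8 and fast Myh4 made up most of the small amount found. Myh8 had 3.56, 2.57, 1.95, 5.16 and 2.59 CPM in KO 1 to 5 and 5.90, 4.62, 3.26, 5.86 and 6.83 CPM in WT 1 to 5. KO 2, 3 and 5 lay below every WT library, and KO 1 and KO 4 lay within the WT range. The log2 fold change was -0.74 (edgeR, SE 0.279 and adjusted p = 0.225). It was -0.28 without KO 2, 3 and 5.

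Myh4, the heavy chain of the fastest fibres, had 3.05, 2.51, 2.25, 3.12 and 2.65 CPM in KO and 2.68, 2.31, 2.09, 2.90 and 3.11 CPM in WT. The groups overlap almost fully, with a log2 fold change of 0.06 (edgeR, SE 0.185 and adjusted p = 0.861). Myh1, the fast 2X chain, had 0.848, 0.918, 1.16, 1.13 and 1.26 CPM in KO and 0.537, 0.577, 0.814, 1.59 and 1.69 CPM in WT, with every KO value inside the WT range and a log2 fold change of 0.03.

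The remaining chains of the group were near 0. Embryonic Myh3 had 4, 3, 3, 0 and 5 counts in KO and 4, 4, 0, 1 and 6 in WT. Slow Myh7, which the heart also uses, had 1, 2, 0, 1 and 4 counts in KO and 0, 0, 0, 0 and 2 in WT. Fast 2A chain Myh2 had 3, 4, 7, 10 and 9 counts in KO and 9, 6, 8, 2 and 7 in WT. All lay too low for a comparison of the groups.

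Shares within a family do not depend on how much fibre RNA a library holds, provided all isoforms of the family come from the same fibres, which was not tested. Of the summed level per kilobase of the 6 heavy chains, Myh8 took 40.1% ± 7.76 in KO and 54.9% ± 3.70 in WT, and Myh4 took 36.5% ± 3.19 in KO and 28.4% ± 2.53 in WT (SD, n = 5 each). KO 4, with a Myh8 share of 51.0%, lay above WT 3, with 49.2%, so the ranges overlap. Slow Myh7 took 1.24% ± 1.24 in KO and 0.177% ± 0.396 in WT, and embryonic Myh3 took 2.56% ± 1.51 in KO and 1.72% ± 1.35 in WT. Each library held only 98 to 177 counts of these 6 chains in KO and 129 to 221 in WT. In KO 3, for example, 32 of 98 counts were Myh8, or 32.7%, with an exact 95% binomial interval of 23.5% to 42.9%. The heavy-chain genes other than Myh7 lie side by side and are close in sequence, and it is not stated how reads that match several of them were counted, so reads could be split between these chains. With lengths taken as the union of all exons, the Myh8 share was 26.7% in KO and 39.5% in WT. The Myh4 share was then 46.2% in KO and 39.0% in WT, so the order of these chains depends on the length used.

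**Figure D2:**
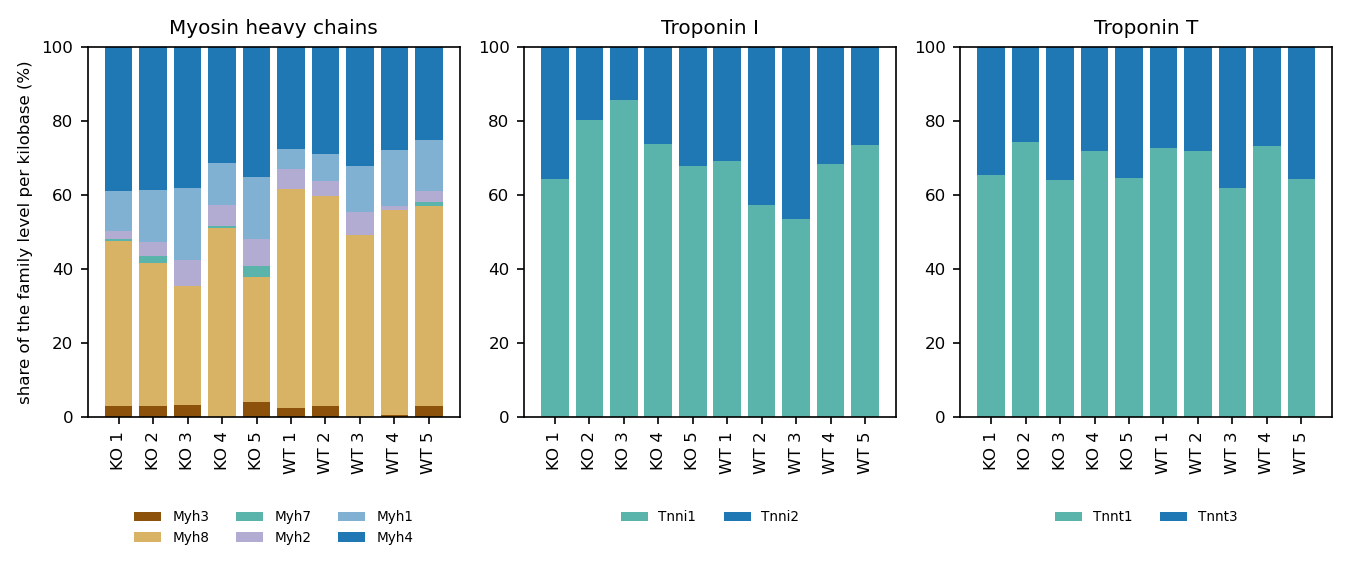
Share of each isoform in the summed level per kilobase of its family (percent), 1 bar per library, for myosin heavy chains, troponin I and troponin T. Myh8 holds 32.3% to 51.0% of the heavy chains in KO and 49.2% to 59.2% in WT, and slow Tnni1 and Tnnt1 exceed fast Tnni2 and Tnnt3 in every library. Lengths are those of the longest coding transcript.

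Troponin, the calcium switch on the thin filament, showed more slow than fast isoform among the fibre genes, the opposite of the 6 heavy chains. Slow troponin I, Tnni1, had 2.43, 6.67, 5.97, 3.80 and 6.08 CPM in KO 1 to 5 and 1.61, 2.42, 2.54, 2.39 and 3.28 CPM in WT 1 to 5. All KO libraries but KO 1 lay above every WT library, and KO 2, 3 and 5 were the highest. The log2 fold change was 1.02 (edgeR, SE 0.285 and adjusted p = 0.210). It was 0.34 without KO 2, 3 and 5, and 0.18 once Y-linked expression was held in the model.

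Fast troponin I, Tnni2, had 0.905, 1.10, 0.670, 0.907 and 1.92 CPM in KO and 0.477, 1.21, 1.48, 0.739 and 0.791 CPM in WT. The groups overlap, with a log2 fold change of 0.22. Slow troponin T, Tnnt1, had 1.47, 7.10, 4.02, 1.98 and 4.81 CPM in KO and 2.33, 3.17, 2.34, 2.44 and 2.09 CPM in WT. KO 2, 3 and 5 lay above every WT library and KO 1 and 4 below every one. Fast troponin T, Tnnt3, split the same way, with 0.791, 2.51, 2.31, 0.793 and 2.71 CPM in KO and 0.895, 1.27, 1.48, 0.910 and 1.19 CPM in WT. The log2 fold changes were 0.64 for Tnnt1 and 0.66 for Tnnt3, and without KO 2, 3 and 5 they were -0.52 and -0.53.

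Of the summed Tnni1 and Tnni2 level per kilobase, slow Tnni1 took 74.3% ± 8.75 in KO and 64.4% ± 8.54 in WT. Of the summed Tnnt1 and Tnnt3 level, slow Tnnt1 took 68.0% ± 4.74 in KO and 68.7% ± 5.33 in WT (SD, n = 5 each). The heart-listed genes Tnni3 and Tnnt2 are not in these shares. Tnni3 averaged 1.91 CPM per kilobase in KO and 0.924 in WT, and Tnnt2 averaged 1.25 in KO and 1.38 in WT. The ranges of the groups overlap for both families. With lengths taken as the union of all exons, the Tnni1 share ran from 52.8% to 78.7% in KO and from 41.8% to 63.3% in WT. The slow excess of troponin I in every library thus depends on the length used. Calcium-binding troponin C had too few reads for a close reading, with 16 to 42 counts a library in KO and 8 to 24 in WT. Fast Tnnc2 had 35 counts in KO and 21 in WT. Its annotated exons share 592 bases with Ube2c, against a longest transcript of 700 bases. Ube2c lies on the opposite strand and averaged 62.4 CPM in KO and 70.8 CPM in WT, and the part of Ube2c reads in the Tnnc2 count was not tested. Slow Tnnc1, which the heart also uses, had a log2 fold change of 0.82 (edgeR, SE 0.464 and adjusted p = 0.295) and -0.38 without KO 2, 3 and 5.

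The light chains of the group, which support and regulate the myosin head, were mostly fast isoforms. Myl1 had 18.8, 31.3, 25.2, 27.1 and 27.7 CPM in KO 1 to 5 and 14.4, 20.2, 11.3, 21.8 and 18.8 CPM in WT 1 to 5. All KO libraries but KO 1 lay above every WT library. The log2 fold change was 0.59 (edgeR, SE 0.190 and adjusted p = 0.214). It was 0.41 without KO 2, 3 and 5, and 0.15 once Y-linked expression was held in the model. Myl1 held 95.1% ± 1.17 of the summed Myl1 and Myl3 level per kilobase in KO and 96.1% ± 2.12 in WT. Myl4, an essential light chain listed here with the heart markers, is not in that share. It averaged 7.09 CPM per kilobase in KO and 8.17 in WT. Fast Mylpf held 92.7% ± 4.29 of the summed Mylpf and Myl2 level per kilobase in KO and 93.7% ± 5.52 in WT. Mylpf averaged 3.14 ± 0.920 CPM in KO and 3.05 ± 1.03 CPM in WT, with a log2 fold change of 0.04, and its slow counterpart Myl2 had 23 counts in KO and 17 in WT.

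Slow essential light chain Myl3, shared with the heart ventricle, had 1.02, 1.71, 1.22, 0.793 and 1.02 CPM in KO and 0.418, 0.577, 0.814, 0.625 and 0.395 CPM in WT. Only KO 4 lay within the WT range, and the log2 fold change was 1.01 (edgeR, SE 0.2998 and adjusted p = 0.214). Annotated exons of Myl3 and the opposite-strand gene Pth1r share 95 bases, and Pth1r, a parathyroid hormone receptor of bone, was at 472 CPM in KO and 264 CPM in WT on average (edgeR log2 fold change 0.83 and adjusted p = 0.205). Whether the counting used strand is not stated, and the part of Pth1r reads in the Myl3 count was not tested.

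**Figure D3:**
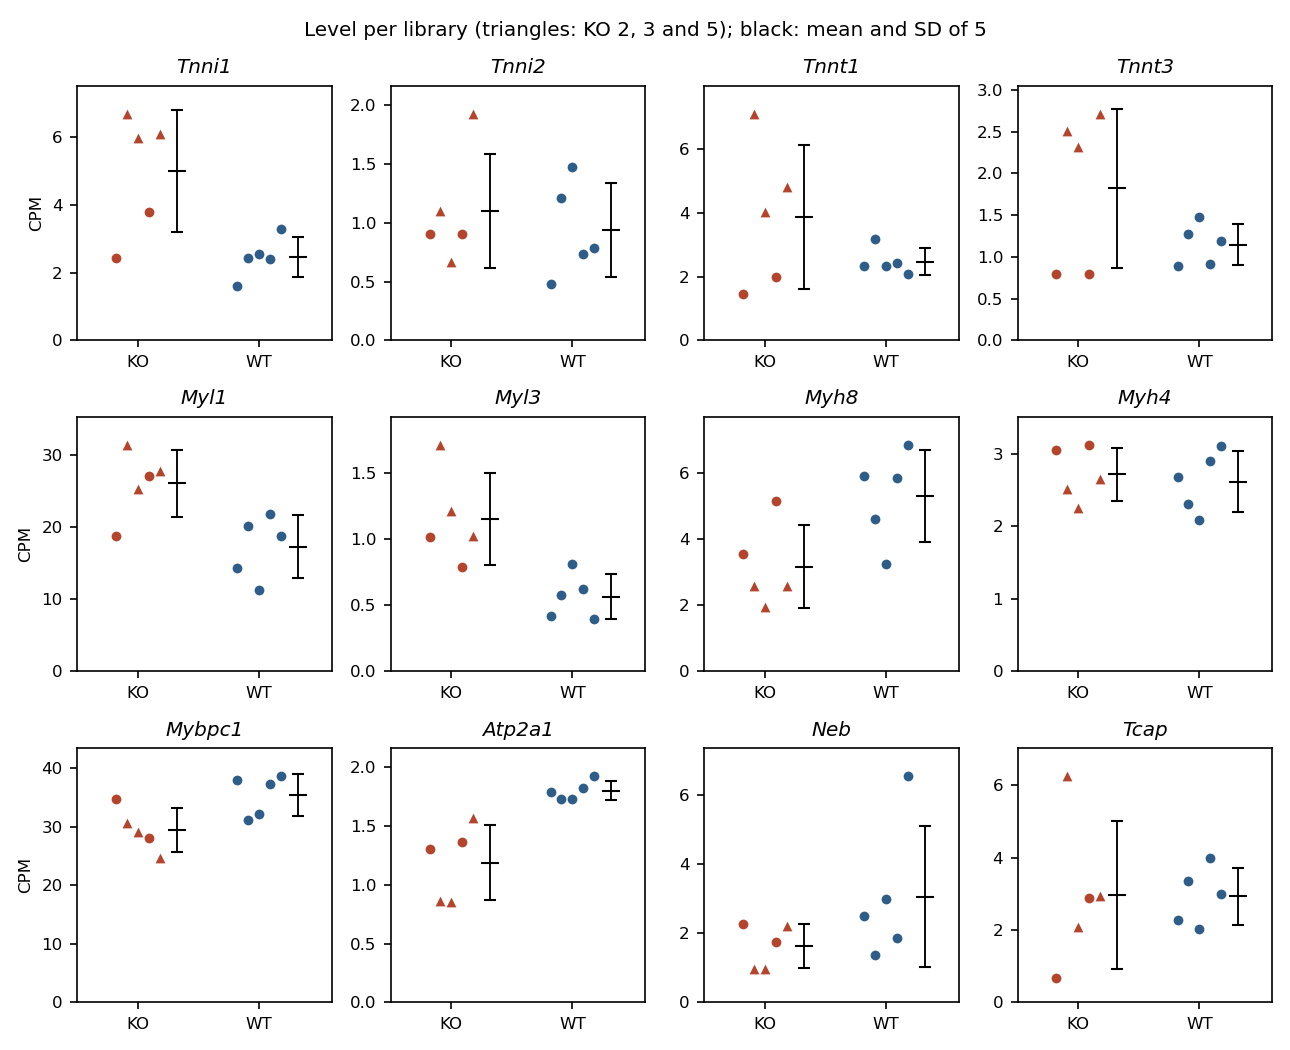
Level of 12 fibre genes in CPM (vertical axes, each from 0), 1 point per library, KO left of WT, with KO 2, 3 and 5 as triangles and the mean and SD of 5 libraries in black. The triangles lie at the top for Tnni1, Tnnt1 and Tnnt3 and at the bottom for Myh8, and the Atp2a1 groups do not overlap.

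Scaffold genes of the sarcomere gave mixed values. Neb had 2.26, 0.979, 0.975, 1.76 and 2.23 CPM in KO and 2.51, 1.38, 3.001, 1.88 and 6.55 CPM in WT, and WT 5 alone stood well above the rest. Its log2 fold change was -0.90 (edgeR, SE 0.418 and adjusted p = 0.251) and -0.42 without WT 5. Ttn averaged 2.76 ± 1.003 CPM in KO and 2.97 ± 1.12 CPM in WT (SD, n = 5 each), a log2 fold change of -0.10. Tcap, the titin cap of the Z-disc, had 0.678, 6.24, 2.07, 2.89 and 2.95 CPM in KO and 2.27, 3.35, 2.03, 3.98 and 2.99 CPM in WT, so that KO 1 and KO 2 held the lowest and the highest value of all 10 libraries and the log2 fold change was 0.02.

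Des had 18.03, 32.9, 27.2, 18.5 and 27.5 CPM in KO and 26.0, 21.98, 17.5, 23.0 and 20.3 CPM in WT, with KO 2, 3 and 5 above every WT library and a log2 fold change of 0.19. Desmin is also made in smooth muscle and in pericytes of blood vessels. The smooth muscle list of 10 genes summed to 272 to 395 CPM in KO and 300 to 321 CPM in WT, and 1 of the 10, Myocd, averaged under 0.5 CPM. The part of such cells in the Des level was not tested. Fast alpha-actinin Actn3 averaged 1.61 ± 0.474 CPM in KO and 1.42 ± 0.486 CPM in WT, and Myoz1, a Z-disc partner of calcineurin, averaged 0.987 ± 0.351 CPM in KO and 0.751 ± 0.231 CPM in WT. Their log2 fold changes were 0.19 for Actn3 and 0.39 for Myoz1.

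Mybpc1 had the most counts of the 31 genes, with 34.8, 30.7, 29.1, 28.2 and 24.6 CPM in KO 1 to 5 and 38.0, 31.1, 32.1, 37.2 and 38.6 CPM in WT 1 to 5. KO 1 lay within the WT range and the other 4 KO libraries below it, a difference with a log2 fold change of -0.26 (edgeR, SE 0.116 and adjusted p = 0.242) that was -0.087 once Y-linked expression was held in the model. Its level was 93.3% ± 2.99 of the summed Mybpc1 and Mybpc2 level per kilobase in KO and 93.3% ± 1.66 in WT. Fast Mybpc2 had a log2 fold change of -0.28.

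Of the 24 tested fibre genes, Atp2a1 alone had groups that did not overlap, a share of 4.17% against 2.36% of all tested genes. Among all tested genes, 1.15% lay higher and 1.21% lower in every KO library than in every WT library. Atp2a1 encodes the fast-fibre pump that returns calcium to the reticulum. It had 1.30, 0.857, 0.853, 1.36 and 1.56 CPM in KO and 1.79, 1.73, 1.73, 1.82 and 1.92 CPM in WT. The log2 fold change was -0.59 (edgeR, SE 0.225 and adjusted p = 0.225), and it was -0.43 without KO 2, 3 and 5. Its annotated exons share 763 bases with Rabep2 on the opposite strand, which averaged 47.4 CPM in KO and 37.0 CPM in WT.

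Ryr1, the calcium release channel, had 8.08, 7.10, 4.81, 8.16 and 7.34 CPM in KO and 9.19, 7.04, 8.29, 9.44 and 10.9 CPM in WT. The groups overlap, with a log2 fold change of -0.34 (edgeR, SE 0.175 and adjusted p = 0.276). Casq1, which stores calcium inside the reticulum, averaged 8.64 ± 1.58 CPM in KO and 8.17 ± 0.979 CPM in WT, and Cacng1, a subunit of the muscle calcium channel, averaged 1.17 ± 0.433 CPM in KO and 1.11 ± 0.448 CPM in WT (SD, n = 5 each), and both had log2 fold changes of 0.08. Mb, the oxygen-binding myoglobin of slow fibres and heart, averaged 0.514 ± 0.344 CPM in KO and 1.002 ± 0.459 CPM in WT, with a log2 fold change of -0.96 (edgeR, SE 0.468 and adjusted p = 0.260).

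The fibre genes did not vary as a block between libraries. Over 276 pairs of the 24 tested genes, the median of Pearson's r of log2 CPM across the 10 libraries was 0.0353, with 53.6% of pairs above 0, and over all pairs of the 16018 tested genes it was -0.00141. With group means removed the median of the 276 pairs was 0.0590. Pairs of genes whose transcripts are both shorter than 2 kb had a median of 0.481, pairs that are both longer had 0.183, and mixed pairs had -0.245. The highest r, 0.895, joined Tnnt1 and Tnnc1, and the lowest, -0.874, joined Myh8 and Myl3. All points share the same 10 libraries, and the counts are sparse.

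**Figure D4:**
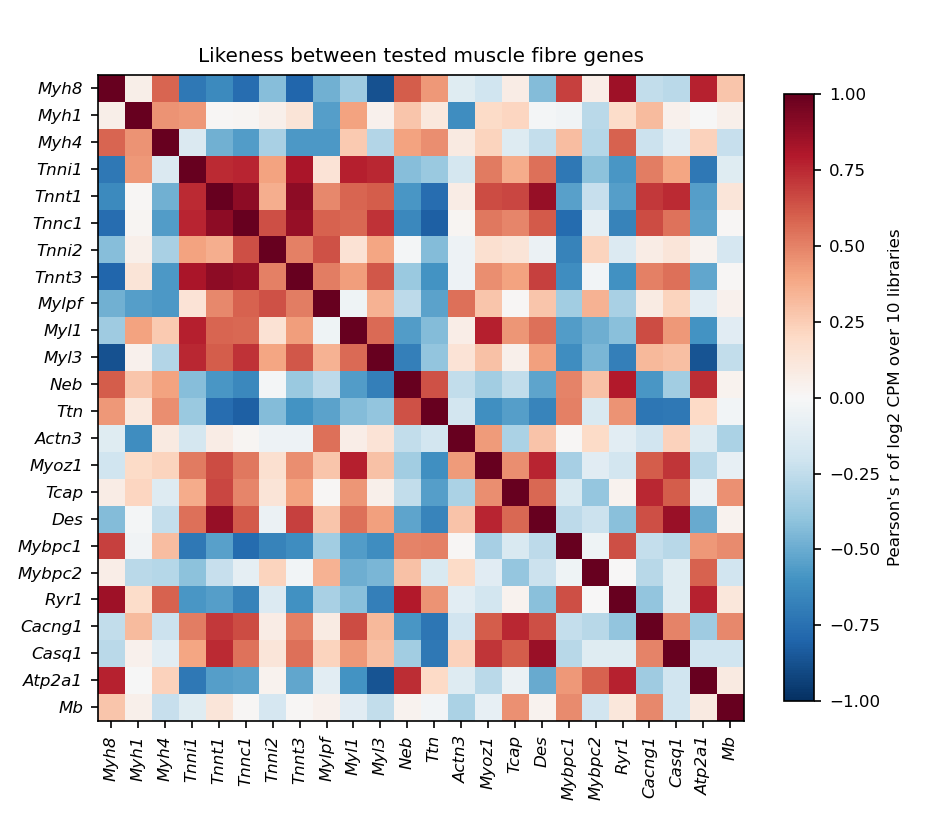
Pearson's r of log2 CPM over the 10 libraries for every pair of the 24 tested fibre genes, in order of role (red above 0, blue below). The troponins Tnni1, Tnnt1, Tnnc1 and Tnnt3 form a red patch, while Myh8, Neb, Ttn and Ryr1 are blue against them.

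Fold changes went with transcript length, among fibre genes as among all genes. Of 13 tested fibre genes shorter than 2 kb, 12 had a log2 fold change above 0, with a median of 0.39, and of 11 longer ones 4 did, with a median of -0.26. All tested genes with a known length had medians of 0.25 below 2 kb and -0.09 above. Spearman's rho between length and log2 fold change was -0.633 over the 24 fibre genes and -0.522 over 14987 genes, given as a description across genes, which are not independent replicates. Without KO 2, 3 and 5 the rho was 0.0948 over the fibre genes and 0.221 over all genes. With the main axis of variation, on which KO 2, 3 and 5 stand apart, r was 0.943 for Tnnt1 and -0.776 for Myh8 over the 10 libraries.

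**Figure D5:**
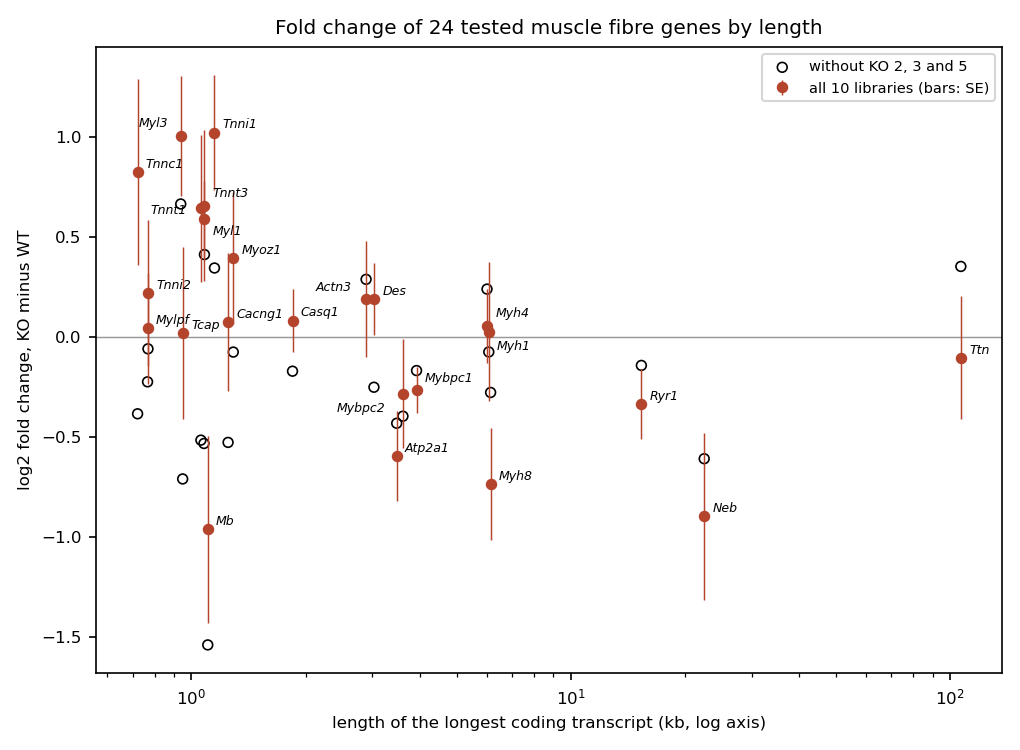
Log2 fold change of KO over WT against the length of the longest coding transcript in kb (log axis) for the 24 tested fibre genes, with all 10 libraries (filled, bars are SE) and without KO 2, 3 and 5 (open). Filled points fall with length at a rho of -0.633 and open points do not, at 0.0948.

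The 10 genes outside the group whose log2 CPM was most like the mean of the 24 over the 10 libraries were Tcea2, Aptx, Slc9a3r2, Setd6, Bcl7b, Pcyt2, Tbcc, Snx11, Smg5 and Smyd2, with r from 0.950 down to 0.915. None of them stands on the lists of muscle genes used here.

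A further list of 44 genes of the sarcomere, the triad and muscle metabolism was also uneven in level. Of these, 10 averaged under 0.5 CPM, among them Ampd1, Sln, Myoz3 and Csrp3, and none of the 34 tested was called. The list summed to 450 to 708 CPM in KO and 479 to 565 CPM in WT, with means of 564 CPM in KO and 517 CPM in WT. Its largest single part was Pvalb. Whether the RNA of this list comes from muscle fibres or from other cells was not tested. The calcium buffer Pvalb averaged 190 ± 66.8 CPM in KO and 189 ± 40.2 CPM in WT, and the glycogen phosphorylase gene Pygm averaged 59.4 ± 3.68 CPM in KO and 56.6 ± 8.09 CPM in WT, these 2 being named after their values were seen. The smallest p values belonged to Klhl41, which stabilises the sarcomere, and Actn2, the alpha-actinin of all striated fibres. Klhl41 averaged 1.02 ± 0.367 CPM in KO and 2.56 ± 0.373 CPM in WT (edgeR log2 fold change -1.32 with SE 0.284 and adjusted p = 0.179), and Actn2 averaged 1.16 ± 0.213 CPM in KO and 2.24 ± 0.548 CPM in WT (edgeR log2 fold change -0.93 with SE 0.236 and adjusted p = 0.208).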

How the data were processed

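RNA was sequenced from whole cochleas, with 5 libraries a group. The deposited file holds raw read counts per Entrez gene ID, and the submitters' processing notes name HISAT2, featureCounts, limma and mm10, with no version and no order of steps. Their annotation and strand setting are not stated. Symbols came from RefSeq (GRCm38, 25275 of 27179 IDs) and GENCODE M21 (18 more). The 1886 IDs without a symbol were kept in the tests and are not named. Lengths came from the longest coding GENCODE transcript.

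The test was edgeR 4.0.16 (quasi-likelihood F-test, R 4.3.3) on the counts as deposited, with group as the only term, TMM scaling, filterByExpr (minimum count 10, minimum total 15) and Benjamini-Hochberg adjustment over all 16018 tested genes, with calls at 0.05. It was also run on simulated counts with known changes. These lacked the main axis of variation and the length trend of the real libraries, so that run says nothing of their effect on the calls. Log2 CPM used a prior count of 2. Standard errors are the log2 fold change over the square root of F. Alternatives were RLE scaling, other filters, DESeq2 1.42.0, limma-voom (limma 3.58.1), the replicate block, Y-linked expression, and each library left out. The fits without KO 2, 3 and 5 and with each library's length trend removed were chosen after seeing the data. Members, role groups and marker lists (other fibre genes, myoblast, cardiac, smooth muscle, tendon, fat, other myosins, cochlear cells) were chosen with earlier results of these data known. Genes named were the heavy chains, troponins I and T, Acta1, Ckm, Tcap and Des with every value, and from each list the called genes or the 2 with the smallest p. Library values of Neb, Myl1, Myl3, Mybpc1, Atp2a1 and Ryr1, and the values of other list genes given outside this rule, were added after they were seen. No 2 libraries were identical.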

Additional observations from a re-analysis of the deposited data

Results flagged for a closer look

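Among 54 groups of 5 libraries looked at, covering the 24 tested fibre genes, their summed level and the shares of Myh8 and Tnni1, 1 had a library set apart by a gap above 0.71 of the group's range. Myoz1 was at 0.356 CPM in WT 3, below the other WT libraries at 0.775 to 0.923 CPM. Chance sets apart about 1 in 20 such groups.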

How the results depend on the processing

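Tools and libraries moved the count of calls most. Over all genes it was 3 in the reported edgeR fit, 331 with DESeq2, 6259 with limma-voom and quality weights, 1 with the replicate block, 0 with Y-linked expression as a covariate, 1 without KO 2, 3 and 5, 12 with the length trend removed and 1 to 166 over the 10 fits lacking 1 library, with 166 without KO 1. Fibre genes called higher in KO numbered 0 in the reported fit, 1 with DESeq2, 6 with limma-voom and 0 to 1 over the fits lacking 1 library, and those called lower numbered 4 with limma-voom and 0 in every other fit. The median log2 fold change of the tested fibre genes was 0.07, turned to -0.26 with Y-linked expression and -0.20 without KO 2, 3 and 5, and stayed between 0.015 and 0.14 when single libraries were left out. With Y-linked expression as a covariate 12 of 24 fold changes turned sign, to -0.29 for Myh1, -0.59 for Tnnt1, -0.43 for Tnnc1, -0.27 for Tnni2, -0.28 for Tnnt3, -0.040 for Mylpf, 0.32 for Ttn, -0.20 for Myoz1, -1.97 for Tcap, -0.21 for Des, -0.57 for Cacng1 and -0.25 for Casq1. The same 12 turned without KO 2, 3 and 5, to -0.075 for Myh1, -0.52 for Tnnt1, -0.38 for Tnnc1, -0.059 for Tnni2, -0.53 for Tnnt3, -0.22 for Mylpf, 0.35 for Ttn, -0.076 for Myoz1, -0.71 for Tcap, -0.25 for Des, -0.53 for Cacng1 and -0.17 for Casq1. Both fits lean on KO 1, so they are not separate checks. Standard errors were wide with Y-linked expression, for example 0.471 for Tnnt1 against 0.368 in the reported fit. With the length trend removed 7 turned, to -0.11 for Tnni2, -0.28 for Mylpf, 0.36 for Ttn, -0.38 for Tcap, 0.033 for Ryr1, -0.20 for Cacng1 and -0.084 for Casq1. Tcap turned to -0.066 with limma-voom and -0.18 with the replicate block, and the cause of these changes was not tested. Leaving out single libraries turned 7 genes, which ranged from -0.13 to 0.27 for Myh1, -0.017 to 0.12 for Myh4, -0.075 to 0.45 for Tnni2, -0.064 to 0.24 for Mylpf, -0.27 to 0.12 for Ttn, -0.45 to 0.27 for Tcap and -0.10 to 0.28 for Cacng1. With exon union lengths the Myh8 share was 26.7% in KO and 39.5% in WT and the Tnni1 share 64.7% in KO and 53.2% in WT. Leaving out single libraries gave Myh8 shares of 37.4% to 42.0% in KO and 53.9% to 56.4% in WT, and Tnni1 shares of 71.5% to 76.8% in KO and 62.1% to 67.1% in WT. RLE scaling and the other filters changed no call or sign. Same-numbered KO and WT libraries had correlations of -0.383 to 0.510 in their deviations, and only KO 2 was most like the WT library of its own number. These deviations also carry the main axis of variation, so they cannot tell whether the numbers pair libraries. Counts of 0 to 23 behind the 7 untested genes limit what can be said of them.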

Other observations

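Heart markers were split between detected and nearly absent genes. Myl4 averaged 6.69 ± 3.42 CPM in KO and 7.71 ± 3.44 CPM in WT, and Myh6, Ryr2, Tnnt2 and Tnni3 had 222 to 869 counts in all 10 libraries together. Of 12 listed, 7 averaged under 0.5 CPM, namely Nppa, Nppb, Myl7, Actc1, Nkx2-5, Tbx20 and Hand2, and the list summed to 12.7 to 20.4 CPM in KO and 17.6 to 22.6 CPM in WT. None of the 5 tested heart markers was called, and the smallest p values were those of Tnni3, cardiac troponin I (log2 fold change 1.03, SE 0.376), and Ryr2, the cardiac release channel (-0.98, SE 0.412). Of the 8 tested smooth muscle markers none was called, with Synpo2 at -0.73 and Actg2 at 0.45.

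Tendon markers held the only called gene among the marker lists. Thbs4, which encodes thrombospondin 4 of tendon and muscle matrix, averaged 3.16 ± 0.411 CPM in KO and 7.83 ± 1.21 CPM in WT (SD, n = 5 each), a difference of -1.31 on the log2 scale (edgeR, SE 0.165 and adjusted p = 0.0300). The call was lost with the replicate block (edgeR log2 fold change -1.30, SE 0.175 and adjusted p = 0.106). It was also lost without KO 2, 3 and 5, where only KO 1 and KO 4 remain (edgeR, -1.24, SE 0.229 and adjusted p = 0.501). Holding Y-linked RNA in the model removed it too (-1.10, SE 0.269). So did all but 2 of the 10 fits lacking 1 library, with the log2 fold change between -1.37 and -1.25 in those 10. Where the call was lost, the estimate stayed negative and changed little beside its SE, which was larger than in the reported fit. The other 8 tendon markers were not called, and all 9 summed to 247 to 262 CPM in KO and 189 to 228 CPM in WT. Most of that sum was Egr1, at 108 CPM in KO and 79.5 CPM in WT, and Fmod, at 95.3 CPM in KO and 76.1 CPM in WT. Of the 9 log2 fold changes 7 lay above 0 and 2 below, with Tnmd at 0.06, Mkx at 0.05 and Kera at -0.64. Fat markers had no call among 3 tested, with Fabp4 at 0.63 and Cidea at 0.31, and 5 of the 8 listed averaged under 0.5 CPM. Myosins of eye and jaw muscle had no call among 4 tested. Myh13, the superfast chain of eye muscle, averaged 0.608 ± 0.218 CPM in KO and 0.493 ± 0.222 CPM in WT, with a log2 fold change of 0.29, and Myh14, a heavy chain of non-muscle cells, had one of -0.08.

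Cochlear cell markers were all detected, and the 18 genes summed to 7926 to 9954 CPM in KO and 11906 to 15286 CPM in WT. None of the 18 was called. The smallest p values were those of Coch, which encodes cochlin (edgeR log2 fold change -0.74 with SE 0.117 and adjusted p = 0.0812), and Pmp22, a myelin protein gene (-0.57, SE 0.121, adjusted p = 0.179).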
